A study of Mus musculus with 22 samples.

Results

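Dcstamp and 7 other genes of cell fusion and the osteoclast (Ocstamp, Tnfrsf11a, Oscar, Itgb3, Atp6v0d2, Acp5 and Ctsk) were followed across 22 mouse pancreatic tumours. All 8 of the 8 listed genes were among the 17966 genes of the expression table. The list was chosen by name, and it was selected on results of these same tumours: Dcstamp was already known to stand high with beta-glucan against untreated. Values of that comparison are therefore given as a description, with no test. The tumours formed in the pancreas from PDA.7940B cells, a polyclonal mouse pancreatic ductal adenocarcinoma line derived from KPC mice, and every group carries the same implanted line and the genotype label WT. The groups were untreated (n = 5), beta-glucan at 1.2 mg into a vein in 1 dose (n = 6), anti-CD40 clone FGK45 at 0.1 mg into the peritoneum in 1 dose (n = 6), and the combination of beta-glucan and anti-CD40, whose doses the labels leave out (n = 5). Treated tumours were taken 10 days after treatment, and the labels give no age, sex or strain of the host. Beta-glucans are fungal polysaccharides sensed by myeloid cells through Dectin-1, and FGK45 activates CD40, a co-stimulatory receptor of macrophages, dendritic cells and B cells. Each library is a whole tumour section, so a higher value cannot be told apart between more cells of a type and more RNA per cell.

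Osteoclasts, which resorb bone, and the multinucleated giant cells of inflamed tissue both form when cells of the monocyte and macrophage lineage fuse. In the osteoclast, M-CSF and RANK ligand act on the precursor, RANK (Tnfrsf11a) signals to NF-kappaB and AP-1, immunoreceptors that pair with ITAM adaptors add a calcium signal, and NFATc1 then turns on the fusion and resorption genes together with PU.1 and MITF. DC-STAMP and OC-STAMP are membrane proteins required for fusion, the V-ATPase subunit d2 serves fusion and proton pumping, and integrin beta-3 anchors the cell. The phosphatase TRAP (Acp5) and the collagen-cleaving protease cathepsin K (Ctsk) are secreted. Most of these genes are also used by macrophages outside bone, and cathepsin K by activated fibroblasts.

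Depth was 6.33 to 21.2 M reads per tumour. The libraries are 3' tag libraries from formalin-fixed sections, so values are compared between tumours and never between genes. Markers of acinar cells, the enzyme-secreting cells of the normal pancreas, took 0.0151% to 12.6% of reads in untreated, 0.393% to 12.3% in beta-glucan, 0.441% to 46.7% in anti-CD40 and 0.414% to 25.3% in combination tumours. They exceeded 15% of reads in 7 tumours: 4 with anti-CD40 (2, 3, 4 and 6) and 3 with the combination (2, 4 and 5).

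The osteoclast label was checked against the defining gene Oscar, which was near 0. Markers of bone-forming cells were read separately and do not check that label. Oscar, the collagen-binding co-stimulatory receptor of osteoclasts, had 18 reads in all 22 tumours together. These were 4 reads in untreated, 6 in beta-glucan and 8 in anti-CD40 tumours, and 0 reads in combination tumours, where the floor of 3 reads corresponds to 0.0430 RPM. No tumour reached a value of 10 (the highest was 6.80), so Oscar was not tested and 7 of the 8 genes were. Of 10 markers of bone-forming cells, 7 were in the table and 3 (Runx2, Alpl and Spp1) passed the filter on low values. Only Runx2 of these was called with anti-CD40 and with the combination, lower in both. The osteoblast factor Sp7 averaged 1.05 in untreated and 1.25 in anti-CD40 tumours. The osteocyte gene Dmp1 had no reads in untreated tumours and some reads in each treated group. Spp1 (osteopontin) is also made by macrophages and tumour cells. It was abundant at 8544 ± 2737 (SD, n = 5) in untreated and 15840 ± 3394 (SD, n = 6) in beta-glucan tumours. In anti-CD40 tumours, and likewise in combination tumours, none of the 3 tested markers, Spp1 among them, had a log2 difference from untreated above 0. The 7 markers in the table summed to medians of 9130 in untreated, 15534 in beta-glucan, 6991 in anti-CD40 and 5973 in combination tumours. The set is therefore described by its genes, and no osteoclast is named as their source.

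The loci lie on 8 chromosomes (GRCm38, the build also called mm10; whole gene spans of GENCODE M21): Dcstamp at chr15:39745930-39760938, Ocstamp at chr2:165393760-165400405, Tnfrsf11a at chr1:105780718-105847981, Oscar at chr7:3609813-3616157, Itgb3 at chr11:104608000-104670476, Atp6v0d2 at chr4:19876841-19922605, Acp5 at chr9:22126727-22135711 and Ctsk at chr3:95499256-95509362. All 8 are protein-coding. Acp5 overlaps 1 gene on the opposite strand, 6530413G14Rik, and since the strand setting of the counting is not known, the reads of that pair cannot be told apart. RefSeq promoter entries (GRCm38.p6) matched 4 of the 8 genes, Tnfrsf11a, Ctsk, Oscar and Acp5. The 250 bases before each start were searched on both strands for short core motifs of the osteoclast factors named above: AP-1 (TGANTCA), PU.1 (GAGGAA), NFAT (GGAAAA), and MITF (CATGTG and CACGTG). The search is shown for Ctsk and Acp5, 2 secreted enzymes whose genes rose with the combination, and no factor was tested as the cause. Ctsk (chr3:95498960-95499209, plus strand) held 2 PU.1 matches, 1 on each strand, and Acp5 at its most upstream start (chr9:22135747-22135996, minus strand) held 1 NFAT match. Of the other 2 Acp5 starts, the window at chr9:22130599-22130848 held 1 MITF match (CATGTG, on the other strand) and the window at chr9:22131866-22132115 none. Oscar held 1 PU.1, 2 NFAT and 1 MITF match. Capitals mark the matches, and each sequence reads 5′ to 3′ toward the gene.
Ctsk: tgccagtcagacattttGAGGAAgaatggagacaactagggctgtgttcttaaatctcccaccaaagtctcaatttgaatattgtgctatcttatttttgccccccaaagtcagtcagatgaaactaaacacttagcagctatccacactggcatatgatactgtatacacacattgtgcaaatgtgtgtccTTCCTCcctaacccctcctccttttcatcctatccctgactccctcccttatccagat
Acp5: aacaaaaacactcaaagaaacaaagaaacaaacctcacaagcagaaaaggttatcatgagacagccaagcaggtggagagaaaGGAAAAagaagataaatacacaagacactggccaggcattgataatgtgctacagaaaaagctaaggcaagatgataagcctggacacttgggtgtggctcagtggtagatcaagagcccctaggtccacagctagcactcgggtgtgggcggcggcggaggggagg
Such matches are common: of 32851 RefSeq mouse promoters of this length, 23.3% held the PU.1 motif and 20.4% the NFAT motif, against 12.3% for CATGTG, 6.75% for AP-1 and 6.02% for CACGTG. Tnfrsf11a held none of these motifs in its window (chr1:105780473-105780722). A match is a description of letters and not of binding.

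Dcstamp, which encodes the fusion protein DC-STAMP, was the member whose level differed most between groups. Its normalized count (reads divided by the tumour's size factor) was 13.3, 6.04, 12.3, 9.16 and 13.8 in the 5 untreated tumours. In beta-glucan tumours it ran from 190.0 over a median of 251 to 301, and in anti-CD40 tumours from 21.7 over a median of 66.4 to 101.5. The 5 combination tumours held 196, 124, 318, 121 and 136. Every treated tumour was above every untreated one, and every combination tumour was above every anti-CD40 tumour, while the combination and beta-glucan ranges overlapped. The order of the means was therefore beta-glucan (245 ± 47.4, SD, n = 6), combination (179 ± 83.8, n = 5), anti-CD40 (66.5 ± 30.9, n = 6) and untreated (10.9 ± 3.26, n = 5), with no separation of the top pair beyond their spread. On the log2(value + 1) scale the difference from untreated was 4.39 ± 0.36 (standard error) with beta-glucan, given as a description.

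For Dcstamp only the difference between the 2 groups outside the beta-glucan comparison was tested. Dcstamp rose by 1.47 ± 0.36 on the log2 scale (2.78-fold) in combination over anti-CD40 tumours, 2 groups that the beta-glucan comparison did not use (limma, adjusted p = 0.0392 over all 14278 tested genes). The lowest combination tumour held 121 and the highest anti-CD40 tumour 101.5. This test drew its estimate of the spread from all 4 groups, among them the untreated and beta-glucan tumours by which the gene was chosen. Its p-value is therefore not free of that choice. A fit of only the 2 groups compared gave the same difference with an adjusted p of 0.201. With libraries scaled to equal totals the difference was 1.58 (adjusted p = 0.493). Over 36 alternatives the direction held in each and the threshold was passed in 21. Against the 5 untreated tumours, which the choice used, Dcstamp stood 3.86 ± 0.37 higher with the combination (14.5-fold) and 2.39 ± 0.36 higher with anti-CD40 (5.24-fold), given as a description with no test. The comparisons of the other members with untreated tumours share those 5 tumours with the beta-glucan comparison. The combination lay 0.53 ± 0.36 below beta-glucan, and the combination minus both single effects was -2.92 ± 0.50. Both values are descriptions, since they use the beta-glucan tumours by which the gene was chosen, and nothing is read from them.

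Inside both groups that received anti-CD40, the tumours with over 15% acinar reads held less Dcstamp. The 4 anti-CD40 tumours with over 15% acinar reads held 21.7 to 66.7, and the other 2 held 99.0 and 101.5. The 3 combination tumours over 15% held 121 to 136, and the other 2 held 196 and 318. Every combination tumour was above every anti-CD40 tumour, so any split of these tumours places the combination higher, and nothing is read from that. With the 7 tumours left out, which leaves 2 tumours in each of these groups, chosen after the values were seen, the difference was 1.31 with an adjusted p of 0.999. The call was also lost when any of the 5 combination tumours, anti-CD40 2, 3 or 4, or beta-glucan 1 or 2 was left out (adjusted p 0.0511 to 0.0940), at log2 differences between 1.24 and 1.59.

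**Figure D1:**
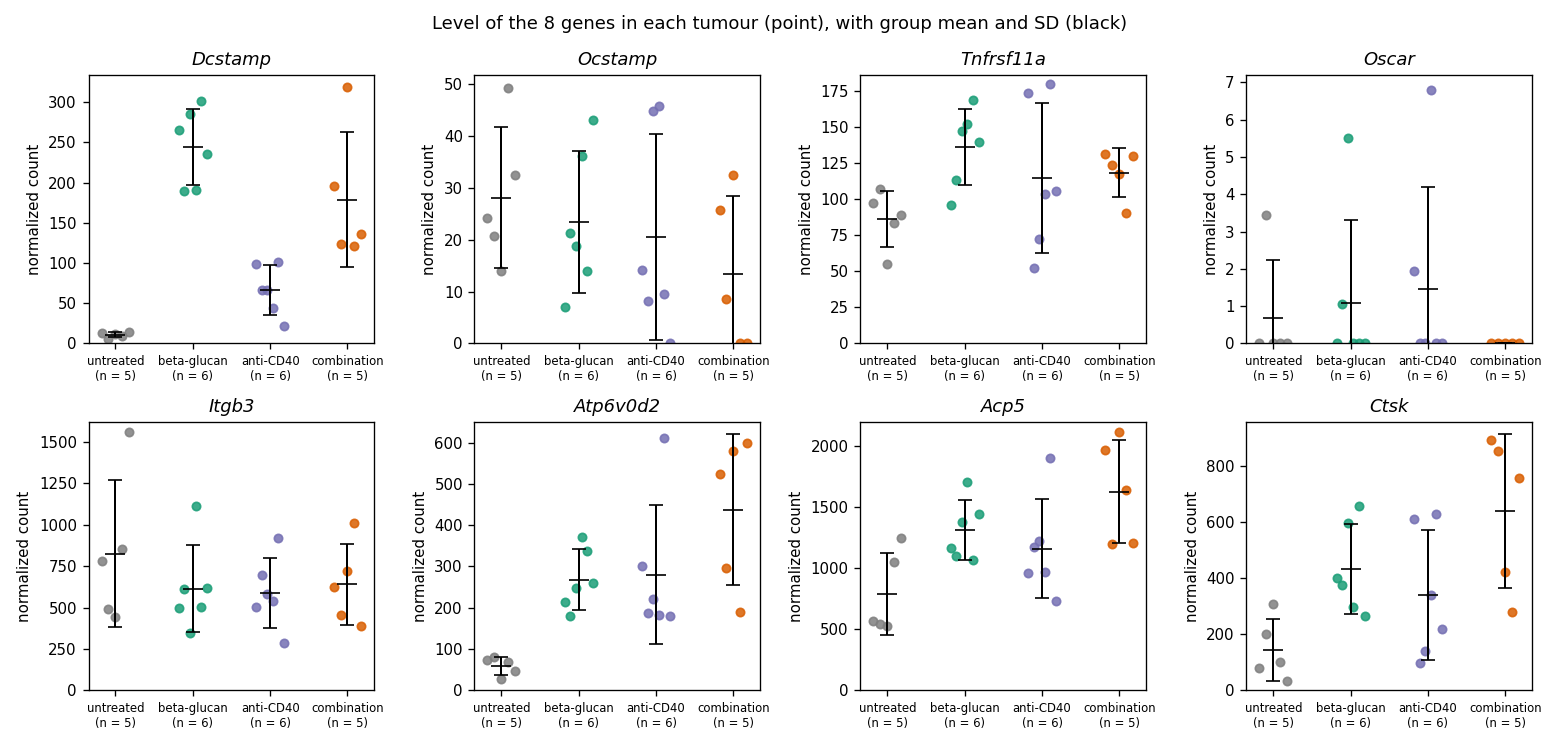
Normalized count (vertical axis, linear, from 0) of the 8 genes in the 22 tumours, 1 panel per gene; points are tumours, black lines the group mean and SD, cut at 0. Dcstamp lies between 6.04 and 13.8 in untreated tumours and between 190.0 and 301 in beta-glucan tumours, while Oscar never exceeds 6.80.

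Ocstamp, the partner of Dcstamp in fusion, did not share this pattern. It had 487 reads in all, and its values were 24.1, 20.7, 14.0, 49.3 and 32.6 in untreated tumours and ran from 6.96 over a median of 20.0 to 43.1 in beta-glucan tumours. With anti-CD40 it ran from 0 (anti-CD40 6) over a median of 11.8 to 45.9, and the combination tumours held 25.7, 8.53 and 32.5, with no reads in combination 4 and 5. The floor of 3 reads was a value of 8.15 in anti-CD40 6, 3.98 in combination 4 and 2.91 in combination 5. A 0 in these tumours therefore does not show absence. All 4 groups overlapped, and no tested comparison passed: the log2 difference was -1.15 ± 0.95 with anti-CD40 (adjusted p = 0.444), -2.13 ± 0.99 with both agents (adjusted p = 0.102) and -0.99 ± 0.95 between them (adjusted p = 0.689). The difference with both agents passed in 2 of 36 alternatives, -2.20 with quantile normalization (adjusted p = 0.0447) and -2.75 without combination 3 (adjusted p = 0.0399). With beta-glucan the difference was -0.35 ± 0.95.

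Among the receptors, Tnfrsf11a encodes RANK itself. Its values in untreated tumours were 97.3, 107, 55.3, 83.6 and 88.9, those in combination tumours were 132, 124, 118, 90.3 and 130.0, and beta-glucan tumours ran from 96.4 to 169 about a median of 144. Anti-CD40 tumours spread widest, from 52.1 to 180.1 about a median of 105, and the 2 tumours under 15% acinar reads (anti-CD40 1 and 5) were the highest at 174 and 180.1. All groups overlapped. The log2 difference was 0.31 ± 0.28 with anti-CD40 (adjusted p = 0.504), 0.47 ± 0.30 with the combination (adjusted p = 0.234) and 0.17 ± 0.28 between them (adjusted p = 0.849); with beta-glucan it was 0.66 ± 0.28. Scaling the libraries to equal totals turned the anti-CD40 difference to -0.27, while the median of all genes moved to -0.56.

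Itgb3, the beta-3 chain of the vitronectin receptor that anchors osteoclasts, overlapped in all 4 groups. Untreated tumours held 780, 494, 443, 855 and 1560, and combination tumours 623, 456, 722, 1011 and 387. Beta-glucan tumours ran from 345 to 1114 about a median of 557, and anti-CD40 tumours from 288 to 919 about a median of 561. The log2 differences of -0.42 ± 0.33 with anti-CD40 (adjusted p = 0.410), -0.30 ± 0.34 with the combination (adjusted p = 0.541) and 0.12 ± 0.33 between them (adjusted p = 0.915) did not pass, and beta-glucan gave -0.37 ± 0.33.

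Of the effector genes, Atp6v0d2 rose with both tested treatments. This gene encodes the d2 subunit of the V-ATPase membrane sector, which replaces the d1 subunit in osteoclasts and some macrophages. It stood at 73.2, 81.1, 26.3, 68.7 and 46.3 in untreated tumours and at 524, 297, 579, 190 and 598 in combination tumours. Beta-glucan tumours ran from 179 to 372 about a median of 254, and anti-CD40 tumours from 179 to 610 about a median of 204. Every treated tumour lay above every untreated one, and the treated groups overlapped. The log2 difference was 2.17 ± 0.35 (4.49-fold) with anti-CD40 (adjusted p = 0.000114) and 2.84 ± 0.37 (7.17-fold) with the combination (adjusted p = 2.95e-06), against 2.22 ± 0.35 with beta-glucan as a description. Combination and anti-CD40 differed by 0.67 ± 0.35 (adjusted p = 0.369). Its paralog Atp6v0d1, the subunit found in most cells, differed by 0.47 ± 0.22 with anti-CD40 (adjusted p = 0.145) and rose by 0.73 ± 0.23 with both agents (adjusted p = 0.0165), so both subunit genes were called with the combination and only d2 was called with anti-CD40; the difference between the 2 genes was not tested.

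Ctsk and Acp5, whose promoter letters are shown above, were called by limma with the combination and not with anti-CD40 alone. Ctsk, the collagen-cleaving protease cathepsin K, held 78.2, 200.2, 307, 102 and 32.6 in untreated and 891, 852, 424, 278 and 758 in combination tumours. It ran from 264 to 656 about a median of 389 with beta-glucan and from 97.2 to 628 about a median of 279 with anti-CD40. The log2 difference was 2.40 ± 0.55 with the combination (5.26-fold, adjusted p = 0.00171), 1.29 ± 0.52 with anti-CD40 (adjusted p = 0.0911), 1.11 ± 0.52 between those 2 (adjusted p = 0.307) and 1.88 ± 0.52 with beta-glucan as a description. The combination tumour with the lowest value (278) was below the highest untreated tumour (307), so these groups touched. With anti-CD40 Ctsk passed in 5 of 36 alternatives, among them DESeq2 (1.24, adjusted p = 0.0473) and the fit without the 7 acinar-rich tumours (2.48, adjusted p = 0.0139).

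Acp5, which encodes the phosphatase TRAP used to stain osteoclasts, held 570, 538, 528, 1046 and 1241 in untreated and 1967, 1199, 2113, 1639 and 1204 in combination tumours. Beta-glucan tumours ran from 1065 to 1703 about a median of 1269 and anti-CD40 tumours from 728 to 1899 about a median of 1067. Acp5 rose by 1.11 ± 0.26 with the combination (2.16-fold, adjusted p = 0.00194), and the highest untreated tumour still reached above 2 of the 5 combination tumours. Scaling to equal totals gave 0.65 with an adjusted p of 0.259, and removing the acinar markers first gave 0.87 with an adjusted p of 0.0533. With anti-CD40 the difference was 0.59 ± 0.25 (adjusted p = 0.100; 0.0242 without untreated 6), between combination and anti-CD40 it was 0.51 ± 0.25 (adjusted p = 0.322), and with beta-glucan it was 0.82 ± 0.25.

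**Figure D2:**
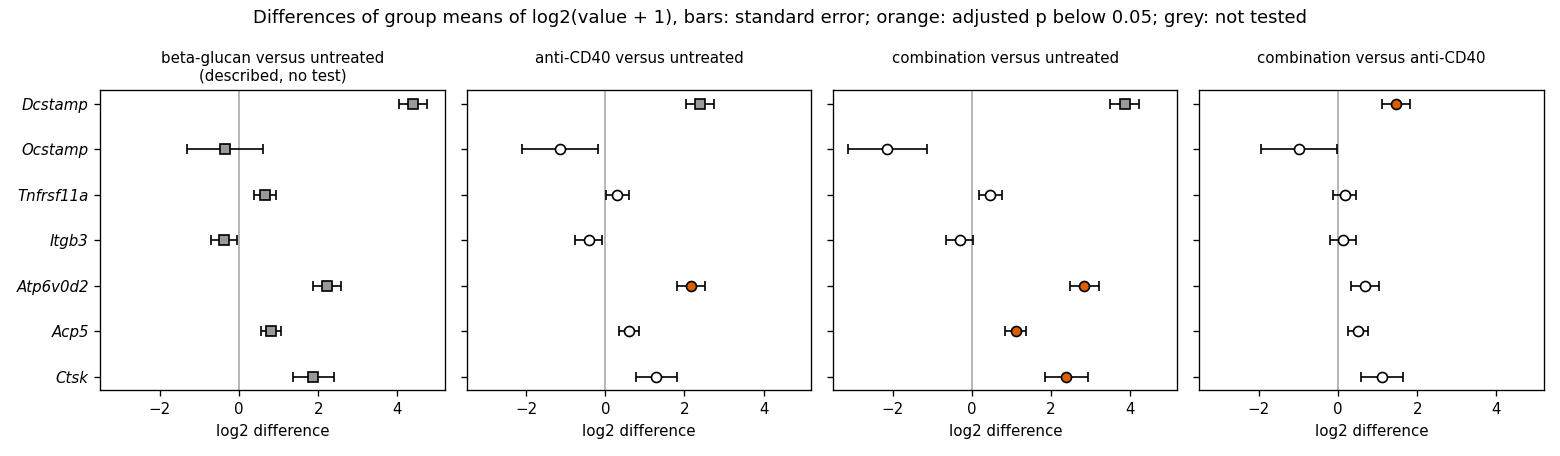
Difference of group means of log2(value + 1) (horizontal axis) for the 7 tested genes in 4 comparisons; bars are standard errors, orange circles passed an adjusted p of 0.05, open circles did not, and grey squares (beta-glucan, and Dcstamp against untreated) were not tested. Only Dcstamp passed between combination and anti-CD40 (1.47), and no member was called lower in any panel.

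Counted over the set, 2 of the 7 tested members (Dcstamp and Atp6v0d2) were called higher with anti-CD40 by limma, where 11.0% of all 14278 tested genes were called higher. The count was 2 by edgeR, 3 by DESeq2 and 4 at an unadjusted p under 0.05. For Dcstamp this and the next count are a description, since its choice used the untreated tumours. Of all genes edgeR called 2440 and DESeq2 3125 with anti-CD40, in both directions together. With the combination these all-gene counts were 4604 and 5196. All-gene counts at an unadjusted p are not given. With anti-CD40, 0 members were called lower (also 0 at an unadjusted p under 0.05, and 0 by edgeR and DESeq2), where 7.56% of all genes were. Dcstamp and Atp6v0d2 both separated the groups completely, as 5.03% of all genes did. With the combination 4 of 7 (Dcstamp, Atp6v0d2, Ctsk and Acp5) were called higher against 18.2% of all genes, and 0 lower against 15.8% (1, Ocstamp, at an unadjusted p under 0.05, and 0 by edgeR and DESeq2); 2 of the 4 separated the groups, as 11.7% of all genes did. Between combination and anti-CD40 the count was 1 of 7 against 0.658% of all genes higher and 0.826% lower, and the same gene, Dcstamp, separated the groups, as 0.777% did. With beta-glucan the choice of the list used the comparison. As a description, 3 of 7 (Dcstamp, Atp6v0d2 and Ctsk) lay past an adjusted p of 0.05 beside 5.09% of all genes higher and 1.32% lower, 2 separated the groups beside 3.98%, and nothing is read from these counts. The median log2 difference of the 7 genes was 0.59 with anti-CD40, 1.11 with the combination and 0.51 between them, where the medians of all genes were 0.00, -0.01 and 0.01. The comparisons share tumours, so these counts are not independent of each other.

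Macrophage marker RNA was higher with the same treatments. The shares of all genes called higher were 11.0% with anti-CD40, 18.2% with the combination and 0.658% between them. Of 14 macrophage markers 9 were called higher with anti-CD40, 12 with the combination and 2 (Cd68 and Msr1) between combination and anti-CD40. Their summed value ran from 31434 to 121507 in untreated, 51809 to 99018 in beta-glucan, 79898 to 186525 in anti-CD40 and 103495 to 223268 in combination tumours, and none of them was at 0 in every tumour of a group. Relative to this sum, Dcstamp had a median of 0.0226% (range 0.0113% to 0.0391%) in untreated, 0.336% (0.193% to 0.551%) in beta-glucan, 0.0604% (0.0225% to 0.124%) in anti-CD40 and 0.0975% (0.0541% to 0.200%) in combination tumours. On this scale anti-CD40 tumours overlapped untreated tumours, and combination and anti-CD40 tumours overlapped. Beta-glucan tumours and combination tumours each remained above all untreated tumours. Both are descriptions, since the beta-glucan comparison, with the same untreated tumours, led to the choice of the gene. Ocstamp had medians of 0.0573%, 0.0336%, 0.0130% and 0.00824% in the same order of groups, the lowest in combination tumours. Atp6v0d2 had medians of 0.170%, 0.355%, 0.229% and 0.287%, and Acp5 of 1.61%, 1.76%, 1.18% and 0.978%. Itgb3 had lower medians in each treated group, 0.781%, 0.621% and 0.440% against 1.41% in untreated tumours. With the mean macrophage marker level in the model, none of the members was called: the Dcstamp difference was 1.71 with anti-CD40, 2.78 with the combination and 1.06 between them (adjusted p = 0.857). In that model 122, 0 and 0 of all genes were called in these 3 comparisons, against 2650, 4849 and 212 without it.

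**Figure D3:**
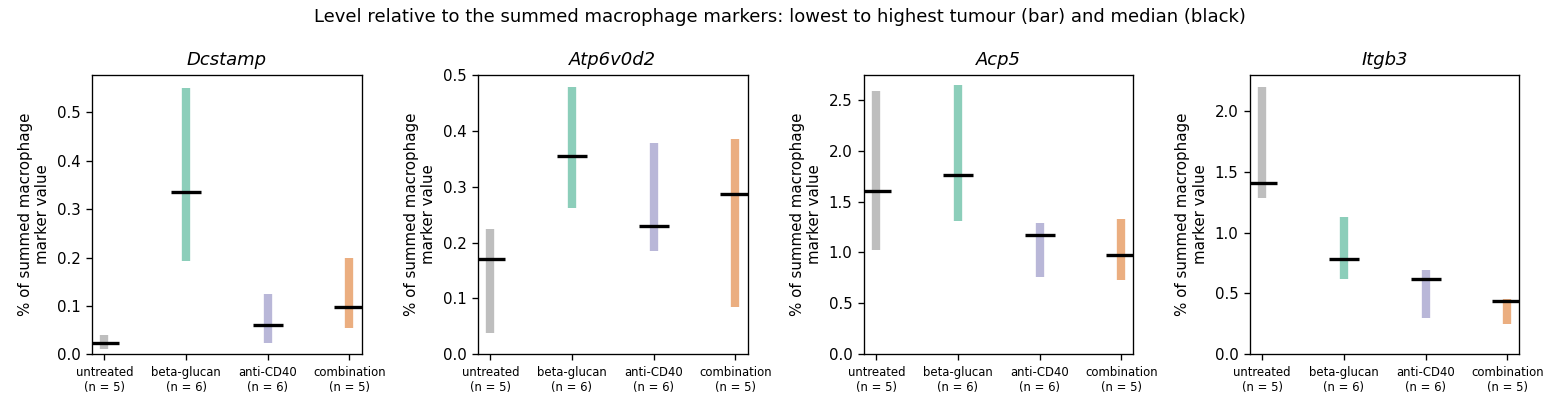
Level of 4 genes as a percentage of the summed value of 14 macrophage markers (vertical axis, linear, from 0) in each group; bars run from the lowest to the highest tumour and black lines are medians. Dcstamp stays highest in beta-glucan tumours (median 0.336%), and Itgb3 has its highest median in untreated tumours (1.41%).

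Other cell types moved as well, and their part in the members' differences was not tested. The 10 neutrophil markers summed to 23785 to 30106 in combination tumours and 964 to 23937 in anti-CD40 tumours, with 2 called higher between them and Ly6g at 0 in every untreated tumour. The 10 fibroblast markers summed to 136747 to 159259 in combination and 28761 to 103981 in anti-CD40 tumours, with no overlap, and 2 (Col3a1 and Col1a1) were called higher. Ctsk, which fibroblasts also express, was called higher with the combination as 9 of these 10 markers were. Of 8 monocyte markers 4 were called higher with anti-CD40 and 5 with the combination, and of 11 epithelial tumour cell markers 9 and 11 were called lower. Of 9 tested T and B cell markers 8 and 9 were called higher (median log2 difference 3.91 and 4.16). Of 9 tested dendritic cell markers 3 and 4 were called higher, and of 9 endothelial markers 5 and 7. The shares of all genes were 11.0% and 18.2% higher, and 7.56% and 15.8% lower. Between combination and anti-CD40, 0.658% of all genes were called higher. Of the 6 platelet markers in the table only Pf4 was called, higher in each of these comparisons; Itgb3 is also a platelet gene.

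Pathway lists were read in the same fit. Among 20 genes of RANK ligand signalling and osteoclast transcription factors, 3 were called higher and 1 lower with anti-CD40, beside 11.0% and 7.56% of all genes, and 4 higher and 2 lower with the combination, beside 18.2% and 15.8%. By limma the shares of this list called higher were near those of all genes. With the combination edgeR called 5 of the 20 higher and 2 lower, and DESeq2 6 and 2. Over all genes these tools called 4604 and 5196, in both directions together. At an unadjusted p under 0.05, 10 of the 20 were higher and 2 lower with the combination, and the all-gene count is not given. The macrophage factor PU.1 (Spi1) rose by 1.57 ± 0.22 with anti-CD40 (adjusted p = 2.82e-05) and 2.31 ± 0.23 with both agents (adjusted p = 1.13e-07), and Mitf by 1.87 ± 0.28 (adjusted p = 4.67e-05) and 2.80 ± 0.29 (adjusted p = 1.68e-07). Jdp2, an AP-1 family member, was the third to rise in both, and Csf1r, the M-CSF receptor, the fourth with the combination (1.72 ± 0.41, adjusted p = 0.00227). Fos fell by 2.20 with anti-CD40 (adjusted p = 0.000214) and by 1.30 with both agents (adjusted p = 0.0129). The defining regulators of the pathway did not pass: RANK ligand (Tnfsf11) was at 2.31 ± 2.72 in untreated and 10.6 ± 7.21 in combination tumours (SD, n = 5 each), its decoy receptor osteoprotegerin (Tnfrsf11b) at 27.6 ± 18.5 and 10.3 ± 7.39, and Nfatc1 at 470 ± 48.1 and 573 ± 90.8, a log2 difference of 0.28 ± 0.17 (adjusted p = 0.224). Between combination and anti-CD40, limma called 0 of the 20 (6 were higher at an unadjusted p under 0.05), and edgeR and DESeq2 also called 0. Over all genes edgeR called 148 there and DESeq2 665, in both directions together.

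Co-stimulation and restraint of osteoclast formation were both called upward. Of 11 tested ITAM genes 10 were called higher with anti-CD40, beside 11.0% of all genes, and 10 with the combination, beside 18.2%. The adaptor DAP12 (Tyrobp) rose by 1.90 ± 0.22 and 2.76 ± 0.23 (adjusted p = 2.54e-06 and 1.73e-08) and the Fc receptor gamma chain (Fcer1g) by 1.57 ± 0.23 and 2.40 ± 0.24 (adjusted p = 3.06e-05 and 8.41e-08). Of 10 genes that restrain osteoclast formation, 7 and 6 were called higher, beside 11.0% and 18.2% of all genes. None was called lower, beside 7.56% and 15.8%. T and B cell markers were also called higher in both comparisons, and the source cells of either list were not tested. Irf8, a transcription factor that blocks NFATc1, rose by 2.12 ± 0.21 and 2.41 ± 0.22 (adjusted p = 3.78e-07 and 3.95e-08), and the inhibitory receptor gene Pirb by 2.61 ± 0.28 and 3.45 ± 0.30 (adjusted p = 8.34e-07 and 2.08e-08). Pirb and Lilrb4a belong to families of close copies, so their reads may be split between family members. Between combination and anti-CD40, 1 gene of each list passed: Tyrobp (0.86 ± 0.22, adjusted p = 0.0483) and Cd300lf, an inhibitory myeloid receptor (1.42 ± 0.23, adjusted p = 0.00471). Of all genes, 0.658% were called higher there. In that comparison edgeR called 0 of the ITAM genes and 1 of the restraining genes, and DESeq2 called 3 ITAM genes higher, and 2 restraining genes higher and 1 lower. Over all genes edgeR called 148 there and DESeq2 665, in both directions together.

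Of 18 genes tied to macrophage fusion, 6 were called higher with anti-CD40 and 11 with the combination, with 1 (Anxa5) lower. Of all genes 11.0% and 18.2% were called higher, and 15.8% lower with the combination. The small GTPase Rac2 rose by 2.07 ± 0.27 and 2.63 ± 0.28 (adjusted p = 8.31e-06 and 2.04e-07), and P2rx7, the ATP-gated channel of giant cell formation, by 1.71 ± 0.31 and 2.20 ± 0.32 (adjusted p = 0.000385 and 1.44e-05). Sirpa and its ligand Cd47 rose by 2.96 ± 0.54 and 0.49 ± 0.15 with the combination (adjusted p = 0.000204 and 0.0105). The tetraspanin genes Cd9 and Cd81, which restrain fusion, did not pass (-0.12 ± 0.97, adjusted p = 0.937, and -0.22 ± 0.18, adjusted p = 0.381). Between combination and anti-CD40, 2 of the 18 rose, the same comparison in which Dcstamp did: the sheddase Adam8 (1.32 ± 0.31, adjusted p = 0.0329) and the gelatinase Mmp9 (1.58 ± 0.37, adjusted p = 0.0382). Neutrophils also express both. Of all genes, 0.658% were called higher between combination and anti-CD40. In that comparison edgeR called 0 of the 18 and DESeq2 called 2, where over all genes they called 148 and 665 in both directions together.

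The resorption machinery moved in parts. Of all genes 11.0% were called higher and 7.56% lower with anti-CD40, and 18.2% and 15.8% with the combination. Of 16 tested V-ATPase genes 4 were called higher with anti-CD40 and 8 with the combination, with 1 (Atp6v0a1) lower. Tcirg1, the a3 subunit of the osteoclast pump, rose by 1.03 ± 0.26 and 1.38 ± 0.27 (adjusted p = 0.0069 and 0.000355). Of 12 tested genes of acid secretion and matrix breakdown, 6 were called higher and 1 lower with anti-CD40, and 9 higher and 2 lower with the combination. Cathepsin S (Ctss) rose by 2.13 ± 0.23 and 2.89 ± 0.24 (adjusted p = 8.21e-07 and 1.47e-08) and the chloride channel gene Clcn7 by 1.08 ± 0.22 and 1.68 ± 0.23 (adjusted p = 0.00103 and 4.43e-06). The carbonic anhydrase gene Car2 and the anion exchanger gene Slc4a2, which feed acid secretion, fell by 2.76 and 1.21 with the combination (adjusted p = 0.0142 and 0.00029). Of 14 integrin and actin ring genes 4 were called higher in each comparison with untreated tumours. With anti-CD40 1 and with the combination 2 were called lower, near the shares of all genes. Itgav, the alpha-v partner of Itgb3, fell by 0.83 with the combination (adjusted p = 0.015). In combination against anti-CD40, 0 of the V-ATPase genes, 2 of the resorption genes (Ctsb and Mmp9) and 0 of the integrin genes were called by limma. Of all genes, 0.658% were called higher there. At an unadjusted p under 0.05, 1, 7 and 3 genes of these lists were higher. The edgeR test called 0 of each list higher, and DESeq2 called 1, 3 and 0. Over all genes these tools called 148 and 665 there, in both directions together. The all-gene count at an unadjusted p is not given.

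**Figure D4:**
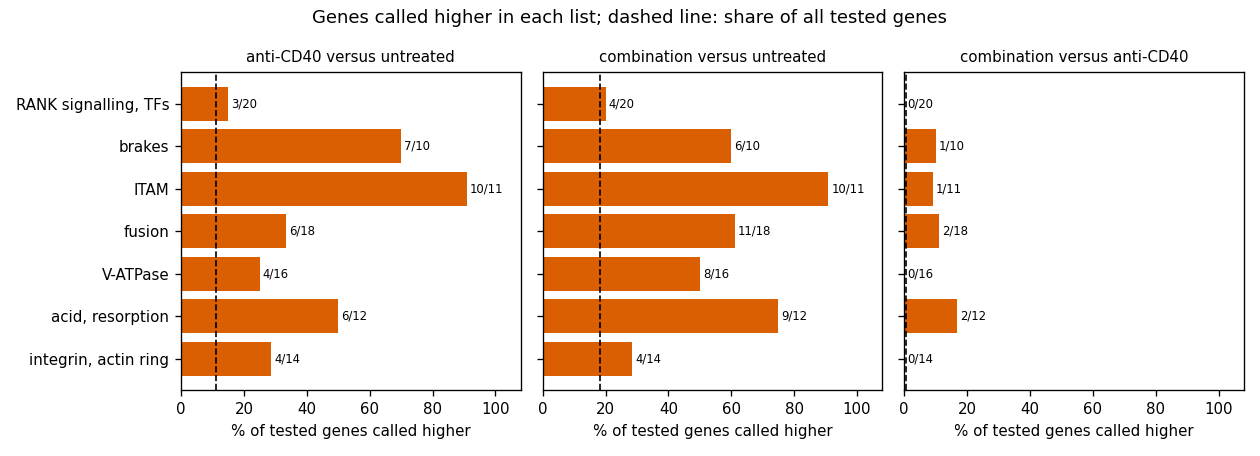
Share of tested genes called higher (horizontal axis, percent) in 7 lists and 3 comparisons; labels give called over tested genes, and the dashed line is the share of all 14278 tested genes. With the combination 10 of 11 ITAM genes and 4 of 20 genes of RANK signalling were called higher, where 18.2% of all genes were.

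The lists were chosen with earlier results of these tumours known, and Mmp9, Rac2 and Vav3 stand in 2 lists each. The median log2 difference with the combination was 0.69 for the RANK list, 1.67 for the restraining genes, 2.40 for the ITAM list, 1.01 for fusion, 0.47 for the V-ATPase, 1.20 for resorption and 0.14 for the integrin list, where the median of all genes was -0.01. With anti-CD40 the same medians were 0.31, 1.08, 1.57, 0.44, 0.23, 0.65 and 0.02.

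The members did not vary as 1 block inside the groups. After each group's mean was subtracted, the 21 pairs of tested members had Pearson correlations from -0.54 to 0.79 over the 22 tumours, with a median of 0.28, and 18 were above 0. Acp5 and Itgb3 varied together (0.79), as did Atp6v0d2 and Tnfrsf11a (0.72), while Ctsk ran against Itgb3 (-0.54). Dcstamp correlated at 0.51 with Acp5, 0.48 with Ocstamp, 0.39 with Atp6v0d2 and 0.11 with Ctsk. By rank (Spearman) the same pairs had 0.47, 0.24, 0.40 and 0.15, so the place of Ocstamp depended on the measure. These values are descriptions: the genes of a tumour share its library, depth, cell makeup and acinar content.

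**Figure D5:**
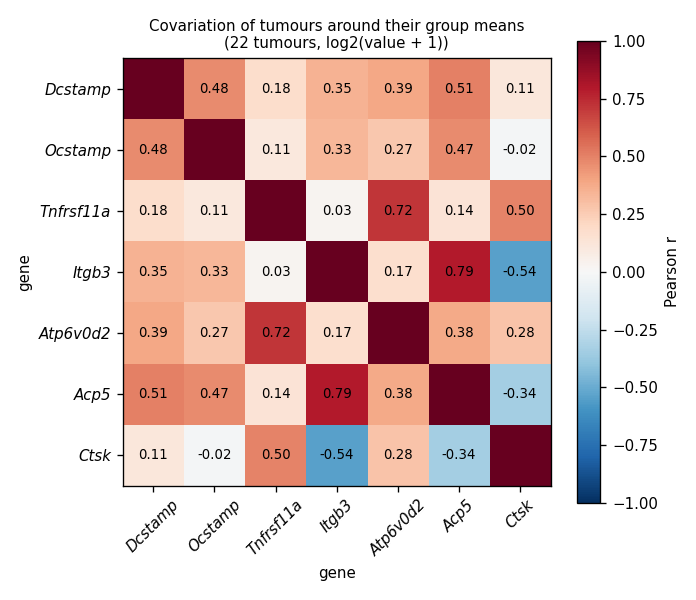
Pearson correlation (colour, -1 to 1) between the 7 tested genes over 22 tumours after subtracting each group's mean of log2(value + 1). Acp5 with Itgb3 (0.79) and Atp6v0d2 with Tnfrsf11a (0.72) are the closest pairs, and Ctsk with Itgb3 (-0.54) the most opposed.

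Among all tested genes, those most like Dcstamp after subtraction of group means were Mmp10 (0.87), Clec5a (0.86), Clec4n (0.85), Sulf1 (0.82), Slc22a13b-ps, Ncam1, Itga5 and Arg1 (0.81 each), over 22 tumours. Clec5a and Clec4n encode myeloid lectin-type receptors, Clec4n being Dectin-2, and Arg1 is arginase 1. Without the subtraction the nearest were Clec4n, Ccl9 and Csf2rb2 (0.94 each), Gpr84 and Clec5a (0.93 each), and Lilrb4a, Mmp9 and Plek (0.91 each), so Clec4n and Clec5a stood on both lists. Mean levels of Clec4n were 822 in untreated, 4070 in beta-glucan, 3056 in anti-CD40 and 5341 in combination tumours, an order in which the combination and not beta-glucan was highest. Mmp10 had the order of Dcstamp at its top, with 266 in beta-glucan, 176 in combination, 73.5 in anti-CD40 and 76.1 in untreated tumours. The genes nearest to the other members were of different kinds: Adgra2, Pdgfrb and Arap1 for Ctsk (0.94, 0.94 and 0.93), of which Pdgfrb is a receptor of fibroblasts and pericytes; Zswim6, Ehd1 and Itgax for Acp5 (0.87 each); 9030625G05Rik, Fnbp1 and Ctss for Atp6v0d2 (0.82, 0.78 and 0.78); Plin2, Tgfb1 and Ppp1r18 for Itgb3 (0.92, 0.91 and 0.90); Adamdec1, Orc2 and Itga2 for Ocstamp (0.88, 0.87 and 0.87); and Naalad2, Pde7b and P2rx7 for Tnfrsf11a (0.81, 0.79 and 0.77).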

How the data were processed

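RNA of 22 tumours was read as 3' tags with a QuantSeq forward kit from formalin-fixed, paraffin-embedded sections, per the labels' protocols. The values are normalized counts, a signal that the authors made by dividing read counts by a size factor per tumour. Per the submitters' processing notes the tools were STAR and DESeq2 and the build mm10, without versions. For the counter, the annotation and the strand setting, details were not given in the sources used here. All values (100% of 395252, within 0.001 reads) were whole multiples of a step per tumour, so reads could be recovered for depth (6.33 to 21.2 M) and for the count tests. Columns without a sample numbered 0.

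Limma 3.58.1 (R 4.3.3) modelled log2(value + 1) by 4 group means, with trended, robust moderation and two-sided tests. The 14278 genes that reached 10 in 5 or more tumours entered, and the Benjamini-Hochberg adjustment ran over them within each comparison, with a threshold of 0.05. A ± after a log2 difference is its standard error, and after a level the SD. A fold is 2 to the power of the log2 difference. The steps were tested on simulated data. No tumours of a group agreed within sampling noise (50 pairs, lowest chi-square per degree of freedom 12.7). No label ties each tumour to its own mouse, so a p-value reflects the spread of these samples, which may be technical. Counts and floors cover counting error only.

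The members and gene lists were chosen with earlier results of these data known. Named genes are the 8 members, up to 3 called genes with the smallest p per list and comparison, defining markers, and the genes most like each member. The following were named after their values were seen: genes that make up a small count or went against their list (Csf1r, Anxa5, Atp6v0a1, Slc4a2, Car2, Itgav, Sirpa, Cd47, Cd9, Cd81). Alternatives were other scalings, pseudocounts, filters, tools (edgeR 4.0.16, DESeq2 1.42.0), covariates, groups fitted and tumours left out. Gene positions came from GENCODE M21, which matched 17699 of 17966 names, and promoters from RefSeq.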

Additional observations from a re-analysis of the deposited data

Results flagged for a closer look

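In 5 of 31 sets of values (1 member in 1 group of tumours), the gap between the highest tumour and the next was large against the range of the set. Chance flags about 1 group in 20 at the 95% level used, a rate that does not hold for Oscar, where the other tumours are mostly at 0. For Atp6v0d2 this was anti-CD40 5, at 610 against at most 302 in the other anti-CD40 tumours. For Itgb3 it was beta-glucan 4, at 1114 against at most 615 in the other beta-glucan tumours. The rest were Oscar at the limit of detection: 3.45 in untreated 2, 5.51 in beta-glucan 3 and 6.80 in anti-CD40 4, each from at most 5 reads.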

How the results depend on the processing

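The rise of Dcstamp between combination and anti-CD40 was positive in all 36 alternatives run (log2 1.06 to 1.63) and past the threshold in 21, with adjusted p from 0.00282 (DESeq2) to 0.999. It was lost with equal totals (adjusted p = 0.493), with acinar markers removed and equal totals (0.213), in a fit of only the 2 groups compared (0.201), with the macrophage covariate, and without the 7 tumours over 15% acinar reads. Under each of these 5 the count of members called between combination and anti-CD40 was 0, and leaving out 1 tumour at a time gave 0 to 1. With the macrophage covariate 0 members were called against untreated with anti-CD40 and 0 with the combination. Without the 7 acinar-rich tumours 4 members were called with anti-CD40, where 2607 of all genes were, in both directions together. The cause was not tested. Equal totals moved the median of all genes by -0.56 with anti-CD40 and -0.45 with the combination, and Tnfrsf11a with anti-CD40 to -0.27. Other signs turned as follows. With the macrophage covariate, Acp5 was -0.28 with anti-CD40, -0.30 with the combination and -0.020 between them, Tnfrsf11a -0.47, -0.77 and -0.30, and Itgb3 -0.44 between them. Without the acinar-rich tumours, Ocstamp was 0.16 with the combination and 1.25 between combination and anti-CD40, where Ctsk was -0.012, Itgb3 -0.017 and Tnfrsf11a -0.50, and Dcstamp was 0.054 between combination and beta-glucan. Leaving out 1 tumour at a time moved Itgb3 between combination and anti-CD40 from -0.065 (without anti-CD40 6; -0.062 without combination 4) to 0.28, and Tnfrsf11a from -0.030 (without anti-CD40 2) to 0.32. Of 756 values for single members, 709 kept their direction and side of the threshold. All-gene calls between combination and anti-CD40 were 212, 148 with edgeR on recovered reads, 665 with DESeq2, 8 with equal totals and 6 in the fit of those groups alone. Same-numbered tumours did not pair (correlations of deviations -0.27 to 0.34 over 30 pairs, 8 over 0.1, and 16 of 60 best with their own number). With the replicate block Dcstamp was 1.41 between combination and anti-CD40 (adjusted p = 0.0430). The tumour titled combination 5 carries the number 6 in its column name. With a replicate block by column numbers, added after seeing the data, Dcstamp was 1.54 (adjusted p = 0.0231), no count of members called changed, and 8 of 30 pairs were over 0.1.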
